A study of Arabidopsis thaliana with 18 samples.

Results

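The genes described here encode calcium sensors, calmodulins, calcium-dependent kinases and other proteins whose annotation refers to calcium or calmodulin. The members are the genes of the authors' deposited table whose description, read without regard to case, contains calcium-binding, calmodulin, calcium-dependent, EF-hand (with or without the hyphen), CBL-interacting or calcineurin. This gave 81 of the 6740 genes in the table. The search used words alone, but the words were chosen with earlier results of these data known, and the table holds only genes that the authors called at least once. By symbol and description 50 are classed as sensors or calcium-regulated kinases. They are 1 calmodulin, 11 calmodulin-like proteins and 22 other EF-hand or calcium-binding proteins, with 3 calcineurin B-like proteins (CBL), 8 CBL-interacting kinases (CIPK) and 5 calcium-dependent kinases (CPK). Of the 22, AT1G12080, AT1G62480 and AT3G59370 are described only as related to a vacuolar calcium-binding protein. No EF-hand is annotated or was found in them, so their class does not show that they are sensors. The other 31 members are 10 calmodulin-binding proteins, 12 C2-domain or lipid-binding proteins, 8 phosphotriesterase-like proteins and 1 calcineurin-like phosphoesterase. The words of the annotation bring in these last classes although they are not sensors, and they are described separately.

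RNA was sequenced from whole seedlings of Arabidopsis thaliana in the Col-0 background, 9 days old, after 24 h on filter paper. The pyl duodecuple line carries mutations in 12 PYR/PYL genes, which encode receptors of the stress hormone abscisic acid (ABA), and Col-0 itself is the wild type. Each genotype was given 100 µM ABA, 300 mM mannitol, a sugar alcohol that draws water from cells, or 1/2 MS medium alone as control, with 3 samples in each of the 6 groups. The labels do not say whether the 3 samples were separate pools of plants.

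The authors' deposited table gives 1 value per group, taken as FPKM (fragments scaled to transcript length and to the number of mapped fragments), the log2 ratio of treated over control and a yes or no call, and no value per sample. No spread between samples, depth or p-value was therefore at hand, no test was run, and "rose" and "fell" are said only of genes that the authors called. Differences between the duodecuple line and the wild type have no call and are untested ratios of 2 group values. Every gene in the table was called in at least 1 of the 4 comparisons, so shares of the table are not shares of the genome, and genes of these families without a call were not analysed here. Of the 81 members 67 reached 5 FPKM in at least 1 group, 14 did not, and none was listed at 0. Of the 12 mutated receptor genes 5 are in the table. PYL5 stood at 13.1 FPKM in control duodecuple seedlings, against 90.6 FPKM in control wild-type seedlings, and PYR1 at 181 FPKM, against 173 FPKM, and a transcript level does not show whether the transcript carries a lesion.

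Calcium ions enter the cytosol of plant cells within moments of osmotic stress and many other stimuli, and proteins with EF-hands, helix-loop-helix folds that hold a calcium ion in their loop, read this signal. Calmodulins and calmodulin-like proteins have no enzyme activity and act by binding targets, CBL proteins bind and place CIPK kinases at membranes, and CPK kinases join EF-hands and a kinase domain in 1 protein. ABA binds PYR/PYL receptors, which then block phosphatases that hold SnRK2 kinases inactive, and calcium-regulated kinases act on some of the same channels and transcription factors as the SnRK2 kinases.

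Of the calcium-related genes called under mannitol most rose, in both genotypes, whereas under ABA few were called in the duodecuple line and more in wild-type seedlings. In the duodecuple line under mannitol 28 members rose and 16 fell, beside 23.3% of all table genes called higher and 27.2% called lower, and members' shares were 34.6% and 19.8%. In the wild type under mannitol 43 members rose and 10 fell, or 53.1% and 12.3%, beside 33.1% higher and 35.3% lower over the table. Under ABA 1 member rose and 2 fell in the duodecuple line, beside 2.49% higher and 2.79% lower over the table, and 14 rose and 18 fell in the wild type, or 17.3% and 22.2%, beside 17.6% higher and 27.3% lower. Among members with 5 FPKM or more in the higher group 12 rose and 10 fell under ABA in the wild type, so the balance turned at these levels. Over all members the ABA shares lay near those of the whole table or somewhat under them, and under mannitol the members leaned to rises. The median log2 ratio of the 81 members was 0.35 under mannitol in the duodecuple line, against -0.29 over the table, and 1.05 in the wild type, against -0.19. The comparisons of 1 genotype under ABA and under mannitol share their control samples.

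**Figure D1:**
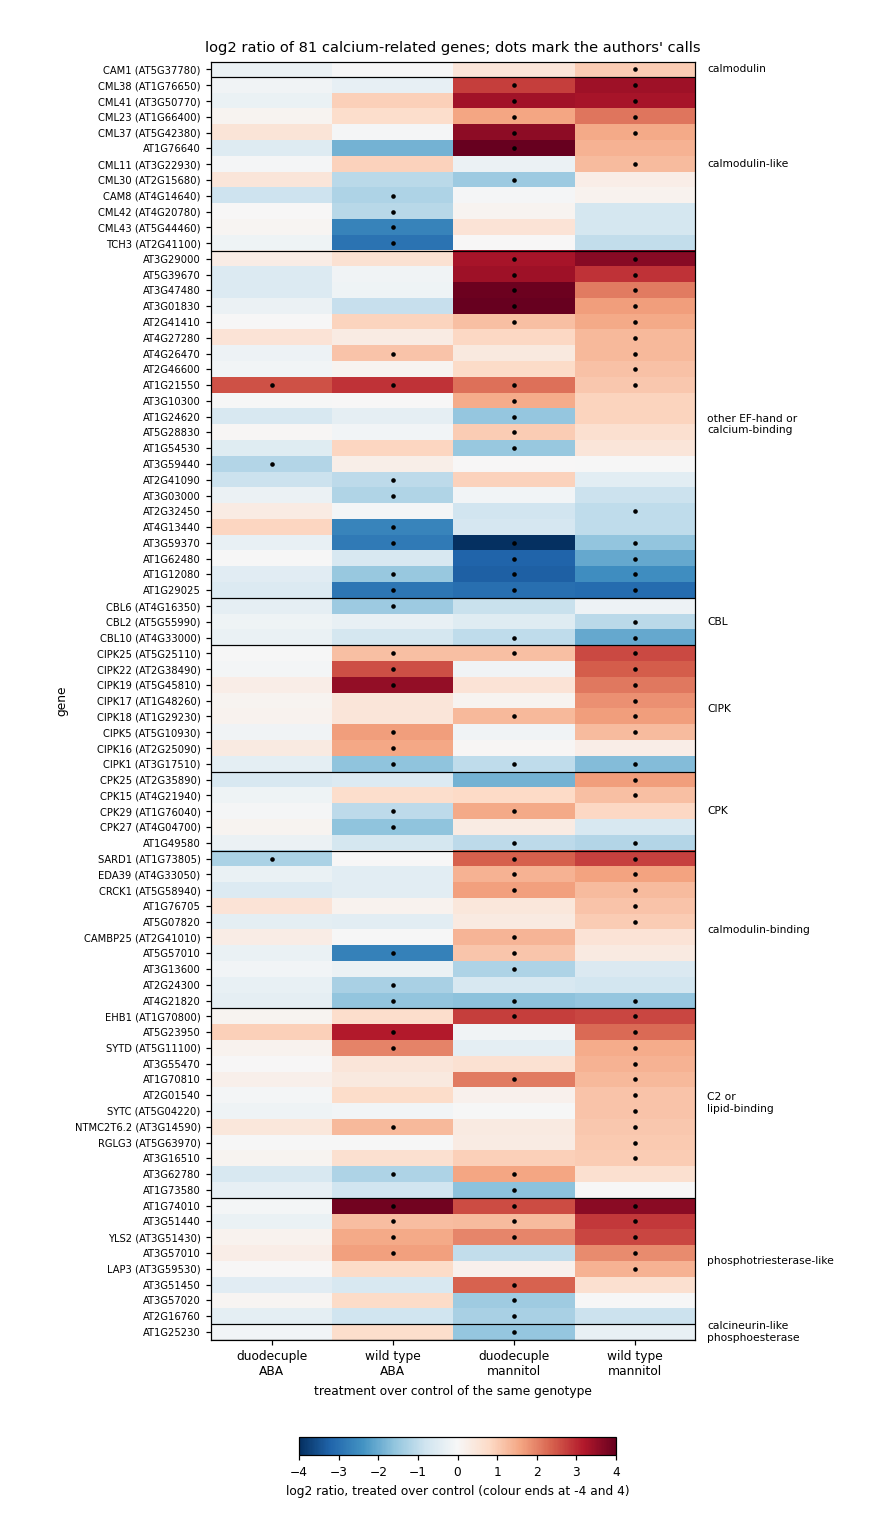
Log2 ratios of treated over control for the 81 members (rows, grouped by role and ordered by the wild-type mannitol ratio) in 4 comparisons (columns), with red for higher, blue for lower and a black dot for each authors' call. The duodecuple ABA column holds 3 dots, against 32 in the wild-type ABA column, and the mannitol columns hold 44 dots in the duodecuple line and 53 in the wild type.

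Whole seedlings hold many cell types, and fewer cells of a type and less RNA per cell cannot be told apart in these values. The summed level of 4 shoot markers (RBCS1A, CAB3, RBCS1B and LHCB2.1) was 13763 FPKM under ABA, 7709 under mannitol and 12686 in control in the duodecuple line, and 9288, 2344 and 13273 FPKM in the wild type. RBCS1A makes up most of this sum, and the markers did not all move alike, since CAB3 (459 FPKM under mannitol and 315 FPKM in control) and LHCB2.1 (121 and 78.9 FPKM) were higher under mannitol in the duodecuple line. The 3 of 6 root markers in the table (COBL9, EXPA7 and RHD6, which mark root hairs) summed to 14.2, 11.5 and 16.1 FPKM in the duodecuple line and 9.08, 28.7 and 10.4 FPKM in the wild type. The 3 of 4 guard cell markers in the table summed to 168, 283 and 241 FPKM in the duodecuple line and 108, 47.6 and 260 FPKM in the wild type. Most of that sum is GC1, and KAT1 went the other way in the wild type, with 9.58 FPKM under ABA, 16.4 under mannitol and 6.93 in control. The part of these shifts in the members' ratios was not tested.

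Of the 43 members that rose under mannitol in the wild type 20 also rose in the duodecuple line, which is 71.4% of the 28 duodecuple rises and 46.5% of the wild-type ones, near the table's 64.7% and 45.6%. Of the 10 that fell in the wild type 8 also fell in the duodecuple line, or 50.0% of the 16 duodecuple falls and 80.0% of the wild-type ones, with 56.1% and 43.3% over the table. No member was called in opposite directions in the genotypes, and over the table this was rare too, with 65 of 2230 wild-type rises and 21 of 2379 wild-type falls under mannitol. Calmodulin-like genes that rose in the wild type also rose in the duodecuple line in 4 of 5 cases, other EF-hand genes in 6 of 9, calmodulin-binding and phosphotriesterase-like genes in 3 of 5 each, CIPK genes in 2 of 6, C2 or lipid-binding genes in 2 of 10, CPK genes in 0 of 2 and calmodulin in 0 of 1. These counts are small, and the difference between roles was not tested.

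EF-hands were looked for in the coding sequence. A search of the annotated proteins for the 12-residue EF-hand loop (PROSITE pattern PS00018) found at least 1 loop in 33 of the 81, including all 11 calmodulin-like proteins with 3 to 6 loops each, CAM1 with 4, 17 of 22 other EF-hand or calcium-binding proteins, 3 of 5 CPK and 1 of 3 CBL. None was found in CIPK, calmodulin-binding, C2, phosphotriesterase-like or phosphoesterase members, and a loop that departs from the pattern is missed. The RefSeq annotation names an EF-hand in 39 members, which are these 33 and 6 without a match (CBL2, CBL6, CPK25, AT1G49580, AT2G32450 and AT5G28830). The coding bases of 1 loop each, taken from loops that lie within 1 exon, follow for the genes with some of the largest mannitol rises, with calmodulin for comparison. Capitals mark the codons of loop positions 1, 3, 5, 7, 9 and 12, whose residues coordinate the ion, on the RefSeq TAIR10.1 assembly.
CML38, chr1:28767254-28767289, minus strand: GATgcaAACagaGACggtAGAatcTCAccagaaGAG
AT1G76640, chr1:28765678-28765713, minus strand: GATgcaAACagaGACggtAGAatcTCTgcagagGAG
CML41, chr3:18874203-18874238, plus strand: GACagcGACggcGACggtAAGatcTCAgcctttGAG
AT3G29000, chr3:11006193-11006228, plus strand: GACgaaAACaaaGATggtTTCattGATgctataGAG
AT3G47480, chr3:17496498-17496533, minus strand: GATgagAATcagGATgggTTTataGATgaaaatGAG
CAM1, loop 2, chr5:15005015-15005050, minus strand: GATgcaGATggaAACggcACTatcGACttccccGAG
The loops of the neighbours CML38 and AT1G76640 are equal at 33 of 36 bases, those of AT3G29000 and AT3G47480 at 24, and those of CML41 and CAM1 at 18. Members with a loop and members without one both leaned to rises under mannitol. With a loop 13 rose and 5 fell in the duodecuple line, and 16 rose and 2 fell in the wild type. Without a loop, among 48 members, 15 rose and 11 fell in the duodecuple line, and 27 rose and 8 fell in the wild type. The table's mannitol shares were 23.3% higher and 27.2% lower in the duodecuple line, and 33.1% and 35.3% in the wild type. Under ABA in the wild type 2 members with a loop rose and 10 fell, and 12 without a loop rose and 8 fell, beside 17.6% higher and 27.3% lower over the table. With the 39 annotated proteins in place of the 33 it was 2 and 11, and 12 and 7 for the other 42. The difference between these sets was not tested.

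Calmodulin-like genes were among the members with the largest rises under mannitol, in both genotypes. CML38 (AT1G76650), a calmodulin-like gene known to be induced by wounding and low oxygen, had 101 FPKM under mannitol and 15 FPKM in control in duodecuple seedlings, against 102 FPKM under mannitol and 9.78 FPKM in control in the wild type. It rose 6.75-fold in the duodecuple line and 10.5-fold in the wild type, and under ABA it stood at 13.7 FPKM in the duodecuple line and 7.81 FPKM in the wild type without a call. Both mannitol values lay above all 4 others. CML41 (AT3G50770), whose protein sits at plasmodesmata, reached 167 FPKM under mannitol, against 16.2 FPKM in control, in the duodecuple line and 204 FPKM, against 20.6 FPKM, in the wild type, rises of 10.3-fold and 9.92-fold. Its ABA value of 40.1 FPKM in the wild type was 1.95-fold over control and not called, and its ABA value in the duodecuple line was 13.5 FPKM.

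CML37 and the neighbour of CML38 had the larger ratio in the duodecuple line. CML37 (AT5G42380), linked to jasmonate and drought responses, had 13.2 FPKM under mannitol and 1.1 FPKM in control in the duodecuple line, a 12.1-fold rise. Wild-type seedlings had 8.3 and 2.92 FPKM, a 2.85-fold rise. AT1G76640, which the reference also calls CML39, had 10.5 FPKM under mannitol and 0.633 FPKM in control in the duodecuple line, a 16.6-fold rise, whereas the wild type had 1.66 and 0.638 FPKM, 2.6-fold apart and not called. AT1G76640 and CML38 lie 883 bases apart and are 72.4% identical over their aligned coding bases, so the assignment of reads between them is uncertain. CML23 (AT1G66400) rose 2.97-fold in the duodecuple line and 4.44-fold in the wild type, to 23.9 and 34.2 FPKM. CML11 (AT3G22930) stood at 9.01 FPKM under mannitol, against 10.6 FPKM in control, in the duodecuple line without a call, and rose in the wild type to 28.7 FPKM, against 12 FPKM. CML30 (AT2G15680) was called lower in the duodecuple line, with 4.81 FPKM under mannitol and 13.3 FPKM in control, and had 20.4 and 17 FPKM in the wild type without a call.

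The 4 EF-hand genes AT3G47480, AT5G39670, AT3G01830 and AT3G29000, without a symbol in the reference, also rose in both genotypes. AT3G47480 had 76.4 FPKM under mannitol and 5.03 FPKM in control in the duodecuple line, against 29.7 and 7.05 FPKM in the wild type, rises of 15.2-fold and 4.2-fold. AT5G39670 had 65.8 and 6.21 FPKM in the duodecuple line and 30.5 and 4.13 FPKM in the wild type, rises of 10.6-fold and 7.39-fold. AT3G01830 had the largest mannitol ratio of all members in the duodecuple line, a 22.2-fold rise to 17.1 FPKM over a control of only 0.768 FPKM, against a 3.19-fold rise to 6.01 FPKM in the wild type. For these 3 the mannitol level was higher in the duodecuple line than in the wild type, while AT3G29000 reached nearly the same level in both, 27.8 and 26.2 FPKM, against 2.85 and 2.11 FPKM in the controls. Under ABA none of the 4 was called, and their ABA levels ran from 0.647 FPKM for AT3G01830 to 4.3 FPKM for AT5G39670 in the duodecuple line, and from 0.991 FPKM for AT3G01830 to 6.3 FPKM for AT3G47480 in the wild type.

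At higher levels AT2G41410, an EF-hand gene, rose 2.32-fold in the duodecuple line and 2.86-fold in the wild type under mannitol, to 259 and 249.96 FPKM. CAM1 (AT5G37780), the calmodulin itself, had 332 FPKM under mannitol, 203 FPKM under ABA and 238 FPKM in control in the duodecuple line, with no call. In the wild type it had 397 FPKM under mannitol and 198 FPKM in control, a 2.0-fold rise and the smallest ratio among members that rose there. Calmodulin genes are close copies of each other, so the share of reads that belongs to CAM1 is uncertain. AT2G46600 and AT4G27280, both called in the wild type and not in the duodecuple line, had 369.7 and 91.3 FPKM under mannitol in the duodecuple line and 373 and 102 FPKM in the wild type, so that levels were close in both genotypes.

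**Figure D2:**
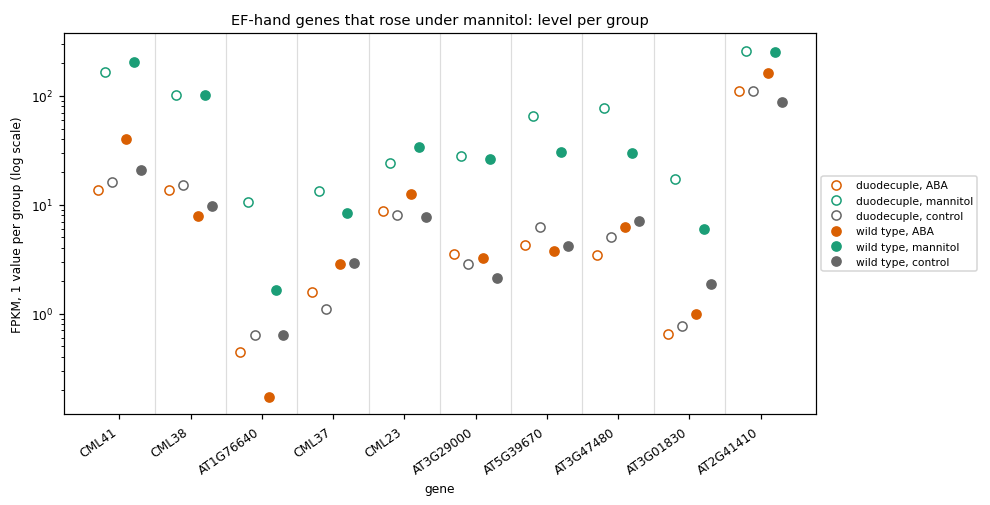
FPKM on a log scale, 1 authors' value per group, for 10 EF-hand genes called higher under mannitol in at least 1 genotype, with open circles for the duodecuple line and filled circles for the wild type. The green mannitol points stand above the grey control points of the same genotype for every gene, and the orange ABA points lie closer to control, except for AT1G76640 in the wild type, where the ABA point lies under control.

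Another set of EF-hand genes fell under ABA in the wild type and was not called under ABA in the duodecuple line. This is not particular to them. Of the 1839 table genes that fell under ABA in the wild type, 79 or 4.3% also fell in the duodecuple line. Of the 1185 that rose, 114 or 9.62% also rose there. TCH3 (AT2G41100), a calmodulin-like gene first found as induced by touch, had 536 FPKM under ABA, 613 FPKM under mannitol and 605 FPKM in control in the duodecuple line. In the wild type TCH3 had 65.8 FPKM under ABA, 256 FPKM under mannitol and 511 FPKM in control, a 7.77-fold fall under ABA and a 2.0-fold lower value under mannitol that was not called. Duodecuple values thus all lay above the wild-type ones, and under ABA the duodecuple line had 8.14-fold more TCH3 transcript. AT2G41090 lies 37 bases from TCH3. Its coding bases equal those of TCH3 at 47.2% of the alignment with gaps counted, or 80% of the shorter coding sequence. It had 221 FPKM under ABA, 758 under mannitol and 404 in control in the duodecuple line, without a call. Its wild-type values were 114, 179 and 238 FPKM, a 2.08-fold fall under ABA. Loop 2 of AT2G41090 equals that of TCH3 at 33 of 36 bases.
TCH3, loop 2, chr2:17138399-17138434, plus strand: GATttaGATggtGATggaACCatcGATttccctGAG
AT2G41090, loop 2, chr2:17136094-17136129, plus strand: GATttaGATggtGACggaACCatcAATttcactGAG
How reads that fit both neighbours were counted is not given in the sources used here.

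CML43 (AT5G44460), a calmodulin-like gene linked to root and defence responses, had 3.84 FPKM under ABA and 3.6 FPKM in control in the duodecuple line, against 0.978 and 6.29 FPKM in the wild type, where it fell 6.43-fold. CML42 (AT4G20780), known for its part in leaf hair branching, had 45.4 and 45.1 FPKM in the duodecuple line and 18.3 and 39.9 FPKM in the wild type, a 2.18-fold fall. The group of calmodulin-like genes that fell under ABA was completed by CAM8 (AT4G14640), which stood at 4.07 FPKM, 1.78-fold under its control of 7.24 FPKM, in the duodecuple line without a call and fell 2.35-fold in the wild type to 1.64 FPKM. None of the 11 genes classed here as calmodulin-like rose under ABA in either genotype, beside 17.6% of table genes in the wild type and 2.49% in the duodecuple line. This class rests on symbol and description, not on sequence. AT1G21550 and AT4G26470, each with 2 EF-hand loops and classed with the other EF-hand genes, did rise under ABA. AT1G21550 rose in both genotypes, and AT4G26470 rose 2.22-fold in the wild type alone. The lack of ABA rises thus holds for the class as named and not for EF-hand genes at large. AT3G03000 had 13.5 FPKM under ABA and 16 FPKM in control in the duodecuple line, and 7.36 and 17 FPKM in the wild type, where it fell 2.31-fold. AT4G13440 fell 6.25-fold in the wild type at levels under 2 FPKM in every group.

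Genes that the table describes as related to a vacuolar calcium-binding protein fell under mannitol in both genotypes. AT3G59370 had 36.9 FPKM under ABA, 2.87 under mannitol and 45.5 in control in the duodecuple line, where it fell 15.9-fold under mannitol and was not called under ABA. In the wild type it had 3.98, 9.48 and 28.1 FPKM with a fall of 7.06-fold for ABA and of 2.97-fold for mannitol. The order of the treatments was therefore reversed, with the lowest value under mannitol in the duodecuple line and under ABA in the wild type. AT1G62480, the most abundant of these genes, fell 9.19-fold under mannitol in the duodecuple line, to 47.5 FPKM against 437 FPKM in control, and 4.17-fold in the wild type, to 75.2 FPKM against 313 FPKM. AT1G12080 fell 9.63-fold under mannitol in the duodecuple line and 5.6-fold in the wild type, and 2.85-fold under ABA in the wild type. AT1G29025, described as an EF-hand protein, fell 8.16-fold under mannitol in the duodecuple line, and 8.49-fold under mannitol and 7.38-fold under ABA in the wild type, where it was at 0.74 and 0.853 FPKM. Its ABA value in the duodecuple line was 9.0 FPKM and not called. That is 10.6-fold the wild-type ABA value, the widest such ratio in favour of the duodecuple line among members at 5 FPKM or more.

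**Figure D3:**
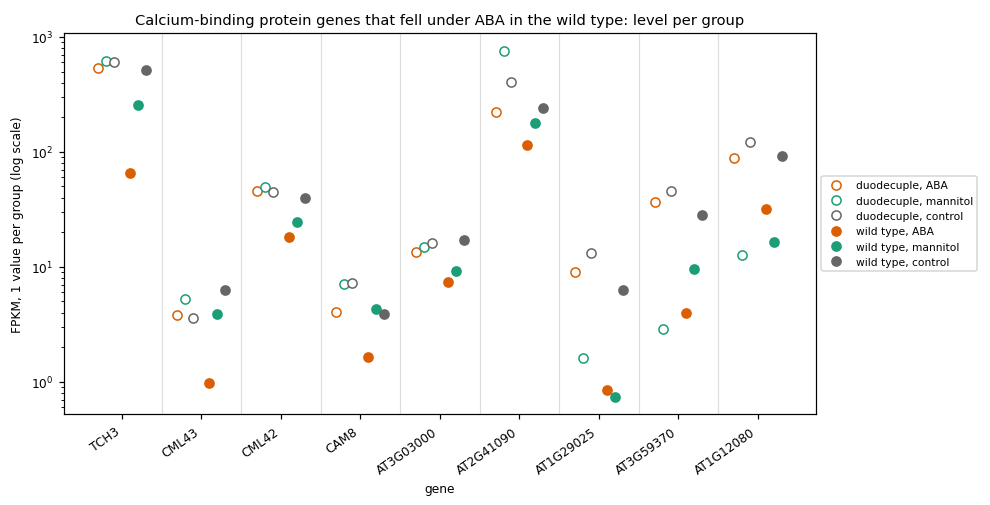
FPKM on a log scale, 1 authors' value per group, for 9 calcium-binding protein genes that fell under ABA in the wild type, with open circles for the duodecuple line and filled circles for the wild type. The filled orange ABA point is under the filled grey control point for each gene, while the open orange point stays nearer to its open grey control point, and 3 genes on the right also fall under mannitol in both genotypes.

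A single member was called in all 4 comparisons, each time as higher. AT1G21550, an EF-hand gene, had 9.0 FPKM under ABA, 7.11 under mannitol and 1.55 in control in the duodecuple line. The wild type had 33.3, 9.42 and 4.46 FPKM in the same order. Its rise in the duodecuple line was 5.8-fold with ABA and 4.58-fold with mannitol, against 7.47-fold and 2.11-fold in the wild type. The ratios under ABA were thus of similar size, though the ABA level in the duodecuple line was 3.7-fold lower than in the wild type. It was the only member that rose under ABA in the duodecuple line. The only members that fell there were SARD1, described with the calmodulin-binding proteins, and AT3G59440, an EF-hand gene with 0.888 FPKM under ABA and 1.99 FPKM in control, which had 1.48 and 1.25 FPKM in the wild type without a call.

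Most CIPK genes were not called in the duodecuple line, and most rose in the wild type under each treatment. Under ABA none of the 8 was called in the duodecuple line, where only 2.49% of table genes rose and 2.79% fell. In the wild type 5 rose and 1 fell under ABA, or 62.5% and 12.5%, beside 17.6% and 27.3% over the table. Under mannitol 2 rose and 1 fell in the duodecuple line, or 25% and 12.5%, beside 23.3% and 27.2%. Wild-type seedlings had 6 rises and 1 fall under mannitol, or 75% and 12.5%, beside 33.1% and 35.3%. CIPK5 (AT5G10930) had 4.51 FPKM under ABA, 4.49 under mannitol and 4.98 in control in the duodecuple line, and 16.2, 12.3 and 5.11 FPKM in the wild type, which rose 3.17-fold and 2.41-fold. The 3 duodecuple values of CIPK5 lay together, close to the wild-type control. CIPK19 (AT5G45810), known from pollen tubes, had 0.593, 0.715 and 0.488 FPKM under ABA, mannitol and control in the duodecuple line and 4.96, 1.87 and 0.432 FPKM in the wild type, rises of 11.5-fold and 4.34-fold. CIPK22 (AT2G38490) lay between 0.197 and 0.218 FPKM in the duodecuple line, and in the wild type it rose 5.94-fold under ABA and 5.31-fold under mannitol, to no more than 1.04 and 0.929 FPKM.

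CIPK16 (AT2G25090), a kinase linked to salt tolerance, had 6.85 FPKM under ABA and 5.4 FPKM in control in the duodecuple line, and 12.1 and 4.08 FPKM in the wild type, where it rose under ABA, its single call. CIPK17 (AT1G48260) had 3.51 FPKM under mannitol and 3.24 FPKM in control in the duodecuple line, and 11.6 and 3.25 FPKM in the wild type, where it rose under mannitol, its single call. CIPK25 (AT5G25110) rose under mannitol in both genotypes, in the duodecuple line with 6.27 FPKM against 2.72 FPKM in control, beside 23.3 against 3.77 FPKM in the wild type, or 2.3-fold and 6.2-fold. CIPK18 (AT1G29230) rose 2.47-fold in the duodecuple line and 3.2-fold in the wild type under mannitol, at under 1.5 FPKM in each group. The exception in direction was CIPK1 (AT3G17510), a partner of CBL1 and CBL9. It had 90.9 FPKM under ABA, 59.9 under mannitol and 120.1 in control in the duodecuple line, and 39.6, 35.8 and 119.7 FPKM in the wild type. It fell 2.0-fold under mannitol in the duodecuple line, and 3.34-fold under mannitol and 3.02-fold under ABA in the wild type.

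The 3 CBL members were lower wherever they were called, a count too small to read as a property of the class. Under mannitol 2 of 3 fell in the wild type and 1 of 3 in the duodecuple line, beside 35.3% and 27.2% over the table. Under ABA 1 of 3 fell in the wild type, beside 27.3%. CBL10 (AT4G33000), which acts with a CIPK in salt tolerance of the shoot, had 16.2 FPKM under mannitol and 32.5 FPKM in control in the duodecuple line and 9.2 and 38.3 FPKM in the wild type, falls of 2.01-fold and 4.16-fold. CBL2 (AT5G55990), found at the vacuole membrane, had 31.2 FPKM under mannitol and 43.7 FPKM in control in the duodecuple line without a call, and fell 2.1-fold in the wild type, to 17.1 FPKM against 36 FPKM. CBL6 (AT4G16350) fell 2.75-fold under ABA in the wild type at under 3 FPKM in every group.

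The 5 kinases described as calcium-dependent did not share a direction. CPK29 (AT1G76040) had 24.6 FPKM under mannitol, 8.4 under ABA and 8.68 in control in the duodecuple line, where it rose 2.84-fold under mannitol. Wild-type CPK29 stood at 22, 5.97 and 12.4 FPKM in the same order, a 2.07-fold fall under ABA and a 1.78-fold higher value under mannitol that was not called. CPK27 (AT4G04700) had 4.76 FPKM under ABA and 4.4 FPKM in control in the duodecuple line, against 1.1 and 3.35 FPKM in the wild type, a 3.05-fold fall. AT1G49580 fell under mannitol in both genotypes, 2.08-fold in the duodecuple line and 2.27-fold in the wild type. CPK15 (AT4G21940) rose 2.32-fold under mannitol in the wild type to 2.89 FPKM, and CPK25 (AT2G35890) rose 3.22-fold there, at under 1 FPKM in every group.

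**Figure D4:**
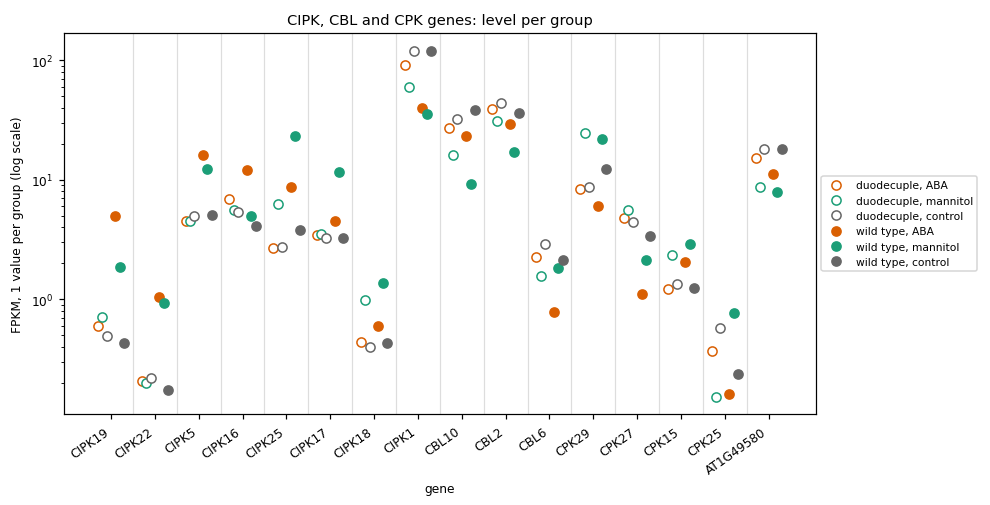
FPKM on a log scale, 1 authors' value per group, for the 8 CIPK, 3 CBL and 5 CPK members, with open circles for the duodecuple line and filled circles for the wild type, and colour for treatment. For CIPK19, CIPK22 and CIPK5 the 3 open points lie together while the filled ABA and mannitol points stand above the filled control point, and for CIPK1 and CBL10 the treated points lie under control.

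Of 10 members described as calmodulin-binding, 5 rose under mannitol in the duodecuple line and 5 in the wild type, with 3 in both counts. Each is 50%, beside 23.3% of table genes called higher in the duodecuple line and 33.1% in the wild type. SARD1 (AT1G73805), a transcription factor that raises salicylic acid synthesis, had 2.86 FPKM under ABA, 36.4 under mannitol and 6.9 in control in the duodecuple line, and 2.35, 15.6 and 2.33 FPKM in the wild type. It rose 5.28-fold and 6.71-fold under mannitol, and fell 2.42-fold under ABA in the duodecuple line. The control value was 2.97-fold higher in the duodecuple line than in the wild type, the widest ratio between the controls among members at 5 FPKM or more, and its ABA value in the duodecuple line was close to the wild-type values under ABA and in control. CRCK1 (AT5G58940), a receptor-like cytoplasmic kinase that binds calmodulin, rose 3.13-fold in the duodecuple line and 2.38-fold in the wild type. EDA39 (AT4G33050), also named IQM1, rose 2.61-fold to 125 FPKM in the duodecuple line and 3.02-fold to 83.1 FPKM in the wild type. AT4G21820 fell under mannitol in both genotypes and under ABA in the wild type, at under 2 FPKM in every group. AT5G57010 fell 6.49-fold under ABA in the wild type, to 0.315 FPKM, and AT2G24300 fell 2.48-fold to 2.0 FPKM.

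Of 12 C2-domain and lipid-binding members 3 rose and 1 fell under mannitol in the duodecuple line, or 25% and 8.33%. The share of rises lay near the 23.3% of all table genes, of which 27.2% fell. In the wild type 10 of 12 rose, or 83.3%, and none fell, beside 33.1% higher and 35.3% lower over the table. EHB1 (AT1G70800), a C2 protein known from phototropism, rose in both genotypes, with 31 FPKM under mannitol and 4.58 FPKM in control in the duodecuple line and 34 and 5.33 FPKM in the wild type. Its neighbour AT1G70810, 39 bases away and 81.1% identical over the aligned coding bases, rose 4.23-fold and 2.46-fold, to 207 and 118 FPKM, and the assignment of reads between the neighbours is uncertain. AT5G23950, described as a calcium-dependent lipid-binding protein, had 1.59 FPKM under ABA, 0.738 under mannitol and 0.817 in control in the duodecuple line, and 11.9, 6.35 and 1.33 FPKM in the wild type, which rose 8.97-fold and 4.79-fold. SYTD (AT5G11100), a synaptotagmin also named SYT4, had 3.67, 2.53 and 3.32 FPKM in the duodecuple line and 11.5, 8.21 and 2.94 FPKM in the wild type, rises of 3.92-fold under ABA and 2.79-fold under mannitol. NTMC2T6.2 (AT3G14590) rose in the wild type, 2.44-fold with ABA and 2.11-fold with mannitol, and SYTC (AT5G04220), also named SYT3, rose 2.22-fold under mannitol.

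Phosphotriesterase-like members, which the table describes as calcium-dependent enzymes and which include strictosidine synthase-like proteins, held the largest ABA rise of all members. AT1G74010 had 3.2 FPKM under ABA, 20.6 under mannitol and 3.36 in control in the duodecuple line, and 48.3, 40.2 and 3.3 FPKM in the wild type. Under ABA it was not called in the duodecuple line and rose 14.6-fold in the wild type, and under mannitol it rose 6.14-fold in the duodecuple line and 12.2-fold in the wild type. AT3G57010 had 30.8, 12.9 and 25.6 FPKM under ABA, mannitol and control in the duodecuple line and 80.7, 96.4 and 26.1 FPKM in the wild type. Mannitol gave a value 1.98-fold under control in duodecuple seedlings, which was not called, whereas in wild-type seedlings the gene rose 3.09-fold under ABA and 3.7-fold under mannitol. Its neighbour AT3G57020, 74.5% identical over the aligned coding bases, fell 2.66-fold under mannitol in the duodecuple line, to 39 FPKM, and was not called in the wild type, at 78.6 FPKM.

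The tandem genes YLS2 (AT3G51430), AT3G51440 and AT3G51450 are 84.7% to 85.6% identical over their coding bases, and how reads were split between them is uncertain. YLS2 rose 3.84-fold under mannitol in the duodecuple line and 6.33-fold in the wild type, and 2.83-fold under ABA in the wild type. AT3G51440 had the same calls at 2.41-fold, 7.15-fold and 2.38-fold. AT3G51450 rose under mannitol in the duodecuple line, its single call, to 28.7 FPKM against 5.65 FPKM in control, and stood at 12.3 FPKM against 7.99 FPKM in the wild type. The calcineurin-like phosphoesterase gene AT1G25230 fell 2.92-fold under mannitol in the duodecuple line, to 15.2 FPKM against 44.5 FPKM in control, and was at 50.4 and 61.8 FPKM in the wild type without a call.

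Set beside each other, the genotypes were close in control medium and further apart under treatment. Among members with at least 5 FPKM in the higher genotype, 3 of 52 were at least 2-fold higher in control duodecuple seedlings than in control wild-type seedlings and none was 2-fold lower, beside 5.42% higher and 4.07% lower over the table. Besides SARD1 these were AT1G54530 with 7.67 FPKM, against 3.0 FPKM, and AT1G29025 with 13.2 FPKM, against 6.29 FPKM. Under ABA 9 of 53 were higher and 14 lower in the duodecuple line, or 17% and 26.4%, beside 22.5% and 21.4% over the table. Under mannitol 10 of 62 were higher and 16 lower, or 16.1% and 25.8%, beside 17.2% and 21.6%. For the class of sensors and calcium-regulated kinases alone the balance turned, with 8 higher and 6 lower under ABA and likewise under mannitol. The 8 higher under ABA include AT3G59370 (9.26-fold), AT1G12080 (2.75-fold) and AT1G62480 (2.18-fold), which have no annotated EF-hand. With no minimum level the balance over all members turned under ABA, with 20 higher and 16 lower. The shares depend on such choices and lay near the table's, so they are not read as a property of calcium-related genes.

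The response to a treatment, as the log2 ratio in the duodecuple line minus that in the wild type, was compared for members called in either genotype with 5 FPKM or more in 1 of the 4 groups. Under ABA it differed by 2-fold or more upward in 9 of 25 and downward in 11, which is 36% and 44%, beside 42.2% and 33.2% over the table, but for sensors and calcium-regulated kinases alone upward in 8 of 16 and downward in 4. Under mannitol it differed upward in 7 of 58 and downward in 17, which is 12.1% and 29.3%, beside 18.3% and 19.3% over the table. The largest upward differences under mannitol were 2.80 for AT3G01830, 2.67 for AT1G76640, 2.08 for CML37 and 1.85 for AT3G47480, all EF-hand genes, and AT3G01830 and AT1G76640 stood under 1 FPKM in the duodecuple control. The largest downward ones were -2.87 for AT3G57010, -2.42 for AT3G59370, -2.41 for AT5G23950 and -2.01 for AT1G54530. For the members that rose under mannitol in the wild type, the median log2 ratio was 0.83 in the duodecuple line and 1.52 in the wild type, beside 0.99 and 1.64 for the 2230 table genes with this call. By role it was 2.75 and 2.15 for the 5 calmodulin-like genes, 2.20 and 1.52 for the 9 other EF-hand genes, 1.38 and 1.25 for the 5 calmodulin-binding genes and 1.27 and 2.66 for the 5 phosphotriesterase-like genes. It was 0.35 and 1.23 for the 10 C2 or lipid-binding genes, 0.33 and 1.97 for the 6 CIPK genes and -0.55 and 1.45 for the 2 CPK genes, and CAM1 had 0.48 and 1.00. As the wild-type call chose these genes, the wild-type medians are high by choice.

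**Figure D5:**
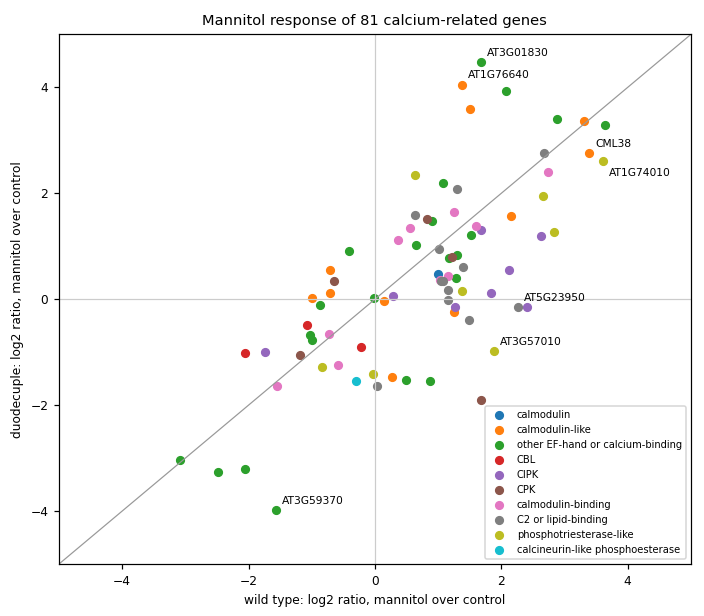
Log2 ratio of mannitol over control in the duodecuple line (vertical axis) and in the wild type (horizontal axis) for the 81 members, 1 point per gene, coloured by role, with the diagonal of equal ratios in grey. AT3G01830 and AT1G76640 lie far above the diagonal, and AT3G57010 and AT5G23950 lie well under it near or beneath 0 in the duodecuple line.

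The bases before each gene's annotated start were searched on both strands for cores of elements bound by factors of the ABA and calcium pathways. These were ACGTGNC (the ABRE core of ABA-responsive promoters), CGCGT (core of sites of CAMTA factors, which bind calmodulin), CCGAC (DRE core) and TTGAC (W-box core), in the 250 bases upstream of the gene. The ABRE core was present in 8.57% of 27443 protein-coding genes and in 7 of the 81 members, or 8.64%, the CAMTA core in 6.87% and in 8 members (9.88%), the DRE core in 12% and in 6 members (7.41%), and the W-box core in 44.9% and in 42 members (51.9%). Among the 6560 table genes searched, from which the members come, the shares were 11.1%, 7.29%, 12% and 47.8% in the same order. Among the 23 members that rose under mannitol in the wild type without a duodecuple call 6 held the ABRE core, or 26.1%, beside 16.2% of table genes with these calls. Among the 20 that rose in both genotypes none held it, beside 12.8% of such table genes. Of the 14 members that rose under ABA in the wild type 3 held it, or 21.4%, beside 19.4% of such table genes. None of the 18 that fell held it, and the share among table genes that fell was not counted. The DRE core was in 5 of the 23 (21.7%, beside 13.9% of such table genes) and 1 of the 20 (5%, beside 12.5%). The CAMTA core was in 2 of the 23 (8.7%, beside 8.18%) and 3 of the 20 (15%, beside 10.4%). The W-box core was in 13 of the 23 (56.5%, beside 49.9%) and 12 of the 20 (60%, beside 56.8%). It was in 9 of the 14 that rose under ABA (64.3%, beside 46.3%). These counts are small, and no difference was tested. In 1 member an ABRE and a W-box match overlapped, and in 1 a CAMTA and a W-box match.

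The windows of 60 bases around the ABRE core of the members that rose under mannitol in the wild type without a duodecuple call are given here where no other annotated gene overlaps them. Each match of the core is in capitals, read in the direction of the gene, on the RefSeq TAIR10.1 assembly.
CIPK22, chr2:16115281-16115340, minus strand: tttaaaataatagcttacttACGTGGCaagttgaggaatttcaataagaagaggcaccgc
AT2G46600, chr2:19135942-19136001, plus strand: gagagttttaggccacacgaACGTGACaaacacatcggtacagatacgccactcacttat
NTMC2T6.2, chr3:4908075-4908134, minus strand: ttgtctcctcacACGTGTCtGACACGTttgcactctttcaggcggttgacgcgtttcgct
AT3G57010, chr3:21097541-21097600, minus strand: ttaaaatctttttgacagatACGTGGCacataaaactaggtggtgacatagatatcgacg
RGLG3, chr5:25609362-25609421, minus strand: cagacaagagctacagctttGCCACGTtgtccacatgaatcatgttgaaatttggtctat
CIPK22, NTMC2T6.2 and AT3G57010 also rose under ABA in the wild type, and AT2G46600 and RGLG3 (AT5G63970), a ubiquitin ligase with a copine domain, did not. NTMC2T6.2 has 2 matches in its window. Of the 8 members that hold the CAMTA core, it is shown for the calmodulin-like gene CML23 and for SARD1, annotated as calmodulin binding protein-like. CML23 and SARD1 each rose under mannitol in both genotypes, as did AT1G70810, but AT4G21820, which also holds the core, fell in both. Of the others CPK29 and CAMBP25 rose under mannitol in the duodecuple line alone, and NTMC2T6.2 and AT3G16510 in the wild type alone.
CML23, chr1:24771395-24771454, minus strand: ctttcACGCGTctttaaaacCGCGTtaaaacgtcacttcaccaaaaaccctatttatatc
SARD1, chr1:27749376-27749435, minus strand: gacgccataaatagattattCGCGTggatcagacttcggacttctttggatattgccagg
The first capitals of CML23 are 2 overlapping matches, 1 on each strand. A match of letters is a description and does not show that a factor binds there.

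Of 43 cyclic nucleotide-gated, glutamate receptor-like and other calcium channel genes in the reference 14 are in the table, of which 8 rose and none fell under mannitol in the duodecuple line and 9 rose and 3 fell in the wild type, beside 23.3% higher and 27.2% lower over the table in the duodecuple line and 33.1% and 35.3% in the wild type. Under ABA none was called in the duodecuple line, beside 2.49% higher and 2.79% lower over the table. In the wild type 3 rose and 2 fell under ABA, beside 17.6% and 27.3%. CNGC3 (AT2G46430) had 23.9 FPKM under mannitol and 6.93 FPKM in control in the duodecuple line and 21.9 and 4.64 FPKM in the wild type. Of 9 calcium pumps and exchangers in the table, out of 26, 5 rose and 1 fell under mannitol in the duodecuple line and 6 rose and 1 fell in the wild type. Under ABA none of these 9 was called in the duodecuple line. In the wild type 2 rose and 3 fell under ABA, beside the table's 17.6% and 27.3%. AT3G63380, also named ACA12, a plasma membrane calcium pump, rose 10.9-fold in the duodecuple line and 2.5-fold in the wild type. CAX3 (AT3G51860), a vacuolar exchanger, rose 4.36-fold under mannitol in the duodecuple line, and 6.71-fold under mannitol and 4.79-fold under ABA in the wild type.

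Both CIPK genes of the table that the words of the annotation miss rose under ABA in the wild type without a duodecuple call. SIP3 (AT4G30960), also named CIPK6, had 158 FPKM under ABA, 286 under mannitol and 168 in control in the duodecuple line and 445, 519.9 and 166 FPKM in the wild type, which rose 2.69-fold and 3.14-fold. SR1 (AT5G01820), also named CIPK14, rose 2.51-fold under ABA in the wild type. A list of RBOH oxidases, SLAC1 and SLAH anion channels, KAT1 and NHX exchangers holds 10 table genes. These were listed by symbol, as families with targets of calcium-regulated kinases, and not every gene is a known target. Under ABA 1 rose and none fell in the duodecuple line, beside 2.49% and 2.79% over the table. Wild-type seedlings had 2 rises and 2 falls under ABA, beside 17.6% and 27.3%. Under mannitol 2 rose and 2 fell in the duodecuple line, beside 23.3% and 27.2% over the table. In the wild type 4 rose and 2 fell under mannitol, beside 33.1% and 35.3%. The anion channel gene SLAH3 (AT5G24030) rose under ABA in both, 3.06-fold and 2.7-fold. The oxidase gene RBOHD (AT5G47910), whose protein CPK and CIPK kinases phosphorylate, rose under mannitol in the duodecuple line, to 120.3 FPKM against 41.8 FPKM in control, and stood at 51.2 FPKM against 28.3 FPKM in the wild type without a call. Of 3 annexin genes in the table ANNAT1 (AT1G35720) rose in the wild type, 2.69-fold with ABA and 2.36-fold with mannitol, while ANNAT3 (AT2G38760) and ANNAT7 (AT5G10230) fell under mannitol in the duodecuple line.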

How the data were processed

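The samples were 18 RNA libraries from whole Arabidopsis thaliana seedlings, 3 in each of 6 groups set by the sample labels. The tools named in the submitters' processing notes are TopHat, Cufflinks and Cuffdiff, with the build TAIR10; versions, settings and strand handling are not given in the sources used here. The authors deposited 1 value per group, treated as FPKM since Cufflinks and Cuffdiff give expression in that unit and the header names none, log2 ratios of treated over control, and yes or no calls whose rule is not stated. The deposited log2 ratios differed from the ratios of the group values by at most 4.68e-05. The planned limma model needs values per sample and could not be fitted, so calls and ratios are described and no test was run. Depth and error per sample are unknown.

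Members were picked by words in the deposited descriptions, sorted into 10 roles, and counted beside all 6740 table genes. Genotype ratios and response differences were counted at 2-fold with 5 FPKM or more in the highest group. The members, gene lists and tests were chosen with earlier results of these data known. A gene that also matches the words is not reported here. Named genes were, in each treatment comparison, the 8 members with the largest rise and the 8 with the largest fall at 5 FPKM or more, the 3 largest changes per role, the 4 largest genotype ratios and response differences per direction, and any calmodulin, CBL, CIPK or CPK. Other members, such as neighbours of named genes, and the genes of the pathway lists, were named after their values were seen. All 81 members matched the RefSeq gene table of assembly TAIR10.1, from which symbols, coordinates and sequences come, and the authors' values carry no coordinates. The 2 deposited lists of selected genes were not used.

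Counting steps were tested on simulated data. Alternatives were a minimum of 5 FPKM or none, a 4-fold limit, an added pseudocount of 1 or 5 FPKM, and sensors and calcium-regulated kinases without the other roles. The software was Biopython 1.88, matplotlib 3.10.9, pandas 2.3.3 and numpy 2.4.6 under Python 3.11.15.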

Additional observations from a re-analysis of the deposited data

How the results depend on the processing

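No paired analysis was possible because the deposited table holds 1 value per group, and for the same reason no replicate could be left out. Counts give all changed members. With 5 FPKM added to every value, members still at least 2-fold apart numbered 1 of 3 under ABA and 27 of 44 under mannitol in the duodecuple line, and 12 of 32 and 25 of 53 in the wild type. At a 4-fold limit these were 1 and 18 in the duodecuple line, and 11 and 19 in the wild type. With sensors and calcium-regulated kinases alone they were 26 under mannitol in the duodecuple line, and in the wild type 21 for ABA and 32 for mannitol. Duodecuple over wild-type ratios gave 3 members in control, 23 under ABA and 26 under mannitol. With no minimum level there were 9 in control and 36 under ABA, with 5 FPKM added 0, 15 and 12, at 4-fold 0, 5 and 5, and with sensors and kinases alone 14 under ABA and 14 under mannitol. Response differences gave 20 members under ABA and 24 under mannitol, against 8 and 13 with 5 FPKM added, 6 and 7 at 4-fold, and 12 and 14 with sensors and kinases alone. Some balances turned. The wild-type ABA count of 14 higher and 18 lower became 12 and 10 at 5 FPKM or more, 13 and 12 with 1 FPKM added and 7 and 5 with 5 FPKM added. The genotype ratios under ABA, 9 higher and 14 lower, became 20 and 16 with no minimum level, 3 and 2 at 4-fold and 8 and 6 for sensors and kinases alone. Those under mannitol, 10 and 16, became 8 and 6 for sensors and kinases alone and 6 and 6 with 5 FPKM added. The response differences under ABA, 9 upward and 11 downward, became 8 and 4 for sensors and kinases alone, 4 and 2 at 4-fold and 14 each with no minimum level. By size of the mannitol log2 ratio in the duodecuple line AT3G47480 passed AT3G01830 with 1 FPKM added, at 3.68 against 3.35, and with 5 FPKM added, at 3.02 against 1.94. The cause was not tested. Settings that add a pseudocount lower the ratios of weakly expressed genes by construction. Of 132 single calls 101 were still 2-fold apart with 1 FPKM added and 65 with 5 FPKM added.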
